A study of Rattus norvegicus with 8 samples.

Results

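The genes described here are those of the rat major histocompatibility complex (MHC), named RT1, and of the machinery that cuts, transports and loads the peptides that MHC molecules display. Members were all rows whose gene symbol begins with RT1-, together with B2m, Cd74, Ciita, Tap1, Tap2, Tapbp, Psmb8, Psmb9, Psmb10, Psme1 and Psme2. They numbered 60 rows of 57 gene symbols, out of 16932 transcripts in all. By role they were 39 rows of class I chains, 10 class II chains, B2m, Cd74, Ciita, 3 peptide loading genes, 3 immunoproteasome subunits and 2 proteasome activator subunits.

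Pineal glands of Sprague-Dawley rats, an outbred strain, were collected before birth, at embryonic day 21 (E21), and after it, at postnatal day 5 (P5), day 20 (P20) and day 40 (P40), in a study of development and of day and night differences. Each age had 1 library from mid-day (zeitgeber time 7) and 1 from mid-night (zeitgeber time 19), with all rats kept under 14 h of light and 10 h of dark. The 8 libraries were pools of glands, from 13 (mid-day) and 15 (mid-night) animals at E21, 17 and 19 at P5, then 13 and 10 at P20, and 3 and 3 at P40. With 1 pool per age and time, the p-values below measure only the spread among these pools after age and time of day are fitted.

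Class I molecules pair a polymorphic heavy chain with beta-2-microglobulin (B2m) and show peptides from inside the cell, cut by the proteasome and pumped into the endoplasmic reticulum by the transporter Tap1 and Tap2, to CD8 T cells. Class II molecules pair an alpha and a beta chain, travel with the invariant chain Cd74 and show peptides from endosomes to CD4 T cells, mainly on macrophages, dendritic cells and B cells. In brain tissue both classes are generally held low in the resting state, and interferons raise them.

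The promoters are shown first, because class I genes, class II genes and the loading machinery carry different short motifs, and because members with the same motif did not all change alike. RefSeq promoters on build GRCr8, from 250 bases before to 50 after each annotated start, were found for 49 of the 57 gene IDs and for 22 of the 25 members tested. RT1-CE7, RT1-EC2 and RT1-DMb had no entry. Motifs were searched on both strands, and their letters were chosen after several had been tried. A match is a description of letters in this window, and a missing match says only that these letters are not there. Among 33469 promoters of 300 bases, TGATTGG (the Y box, read by NF-Y) was in 7.06% and ACNGATG (a short core of the X box, read by RFX) in 10.2%. TGATTGG was in 9 of 9 class II promoters, 14 of 30 class I promoters and 1 of 10 others, and ACNGATG was in 6 of 9, 10 of 30 and 0 of 10. The class II windows below are of 60 bases each, with the Y box and the X box core in capitals. RT1-Ba has no match to the X box core, and its cyclic AMP element TGACGTCA is in capitals instead. Of the class II promoters not printed, RT1-DOa and RT1-Ha have the Y box without the X box core, and RT1-Db2 has both. TGACGTCA was in 1.83% of all promoters and in 1 of the 49 members. The windows were RT1-Ba chr20:4576964-4577023 on the plus strand, RT1-Bb chr20:4604170-4604229 on the minus strand, RT1-Da chr20:4515316-4515375 on the plus strand, RT1-Db1 chr20:4560233-4560292 on the minus strand, RT1-DMa chr20:4712390-4712449 on the minus strand and RT1-DOb chr20:4627597-4627656 on the minus strand.
RT1-Ba: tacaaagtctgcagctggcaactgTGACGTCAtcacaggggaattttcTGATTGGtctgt
RT1-Bb: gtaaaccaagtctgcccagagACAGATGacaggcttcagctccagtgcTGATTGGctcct
RT1-Da: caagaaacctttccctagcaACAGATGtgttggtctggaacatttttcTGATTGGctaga
RT1-Db1: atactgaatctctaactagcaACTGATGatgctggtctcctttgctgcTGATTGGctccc
RT1-DMa: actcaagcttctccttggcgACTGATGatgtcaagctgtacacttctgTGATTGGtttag
RT1-DOb: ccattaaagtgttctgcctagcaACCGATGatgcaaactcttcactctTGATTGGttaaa

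The kappaB sequence of the class I enhancer, GGGGATTCC, was in 9 of 30 class I promoters, 0 of 9 class II promoters and 0.281% of all promoters. The 3 tested class I members with a match are printed with it in capitals, and with the Y box on the other strand, CCAATCA, also in capitals. The windows were RT1-A1 chr20:4907078-4907213 on the plus strand, RT1-A2 chr20:4872692-4872826 on the plus strand and RT1-CE4 chr20:3509220-3509355 on the minus strand.
RT1-A1: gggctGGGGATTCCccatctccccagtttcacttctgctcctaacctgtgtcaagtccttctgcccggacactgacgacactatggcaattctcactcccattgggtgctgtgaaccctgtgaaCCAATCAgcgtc
RT1-A2: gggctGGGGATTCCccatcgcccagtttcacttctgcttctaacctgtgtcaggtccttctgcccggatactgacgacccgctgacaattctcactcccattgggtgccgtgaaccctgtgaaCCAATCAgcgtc
RT1-CE4: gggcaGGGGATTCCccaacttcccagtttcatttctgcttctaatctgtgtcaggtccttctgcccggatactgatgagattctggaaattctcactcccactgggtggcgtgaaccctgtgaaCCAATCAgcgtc

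The core of the interferon element, GAAANNGAA, was in 7 of the 10 promoters of members other than class I and class II chains, 3 of 30 class I promoters, 0 of 9 class II promoters and 9.71% of all promoters. Those of B2m, Tap2, Psmb8 and Psmb10 are printed, with the match in capitals and the reading of the other strand, TTCNNTTTC, for Psmb8. Psmb10 holds 3 matches, of which 2 overlap. The windows were B2m chr3:129549165-129549204 on the plus strand, Tap2 chr20:4652313-4652352 on the minus strand, Psmb8 chr20:4657026-4657049 on the minus strand and Psmb10 chr19:50743287-50743380 on the minus strand. Tap1 and Psmb9 are divergent neighbours, and their promoter windows share 44 bases, at chr20:4668750-4668793. The interferon gamma element TTCNNNGAA was in 2 of the 49 members and in 8.87% of all promoters.
B2m: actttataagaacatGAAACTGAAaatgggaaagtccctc
Tap2: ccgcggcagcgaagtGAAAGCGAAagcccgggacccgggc
Psmb8: cttggtgctgtggctTTCGCTTTC
Psmb10: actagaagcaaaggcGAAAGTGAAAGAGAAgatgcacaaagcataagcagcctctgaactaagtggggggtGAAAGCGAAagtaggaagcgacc

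**Figure D1:**
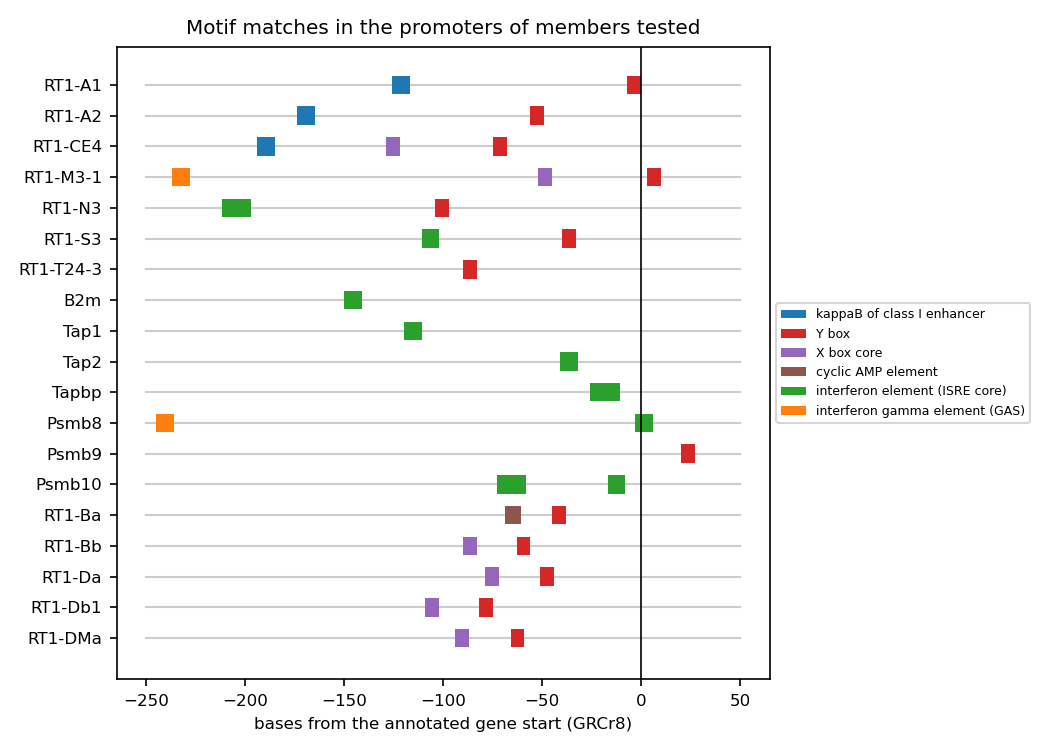
Position of each motif match (coloured boxes, both strands) in bases from the annotated gene start (horizontal axis), with 1 line for each tested member that has a match. Y boxes (red) lie in all 5 class II promoters drawn, kappaB matches (blue) in 3 class I promoters and interferon elements (green) mostly in B2m and the processing genes.

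Values are FPKM, a fragment count divided by transcript length and by the size of the library. Between 8598 and 9533 transcripts reached 1 FPKM in a library. The worth of a single fragment was estimated from the lowest nonzero levels of short olfactory receptor transcripts, 5 to 19 of them in a library. On a transcript of 1 kb the estimate was lowest in P40 mid-night, at 0.0279 FPKM, and highest in P20 mid-day, at 0.0679 FPKM. By this estimate, levels near 0.1 FPKM rest on few fragments. The 10 pinealocyte markers (Tph1, Aanat, Asmt, Crx and others) summed to 884 to 923 FPKM at E21 and 2900 to 5500 FPKM from P5 on. Over E21 to P40, matrix and fibroblast markers went from 863 and 1217 FPKM to 149 and 113, endothelial markers from 43.6 and 55.9 to 19.9 and 16.5, and erythroid markers from 11891 and 6664 to 1239 and 1517, and their part in the results was not tested. The P5 mid-night library stood apart in choroid plexus markers, which summed to 17845 FPKM there and to at most 3164 FPKM elsewhere. Of the members, 25 reached 1 FPKM in at least 2 libraries and were tested. Of the 35 others, 9 were listed at 0 in all 8 libraries, and the other 26 reached at most 3.88 FPKM (RT1-CE5).

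**Figure D2:**
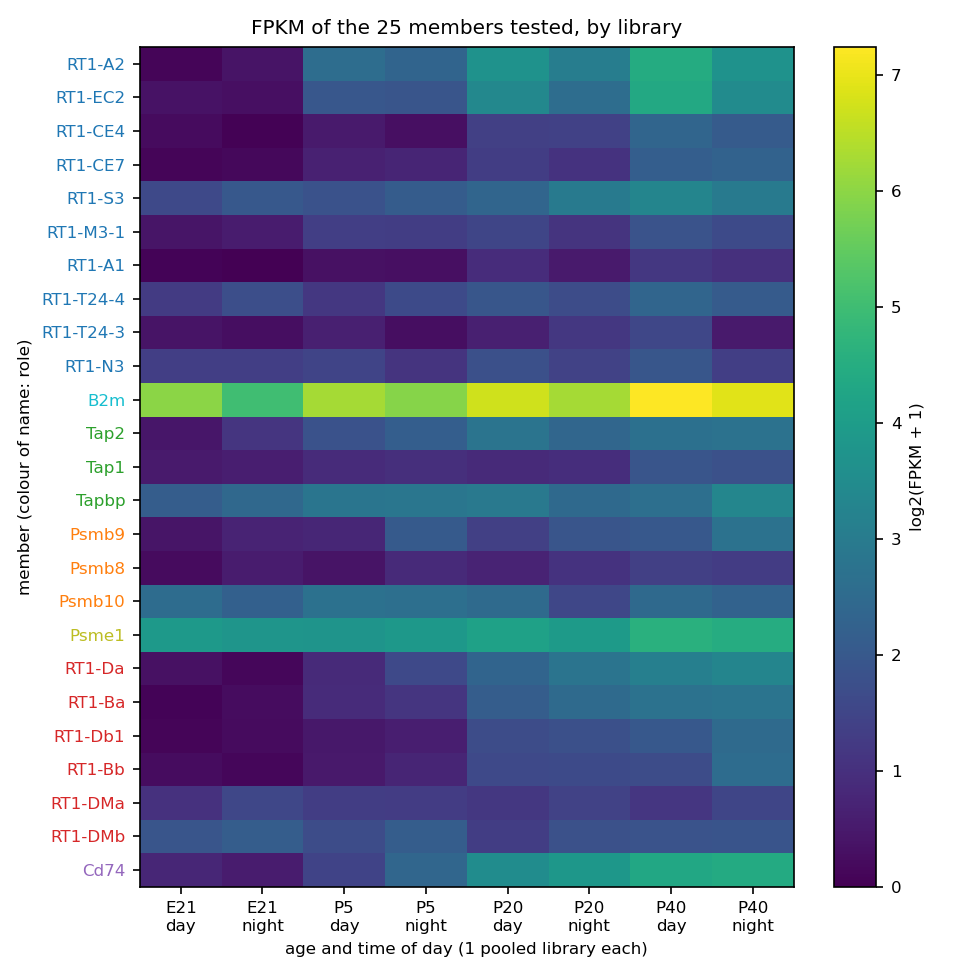
Level of the 25 tested members (vertical axis, names coloured by role) in each of the 8 libraries (horizontal axis), as log2(FPKM + 1) on the colour scale. B2m is the brightest line in every library, and RT1-A2, RT1-EC2, the class II presenting chains and Cd74 brighten from E21 to P40 while RT1-DMa and RT1-DMb do not.

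From E21 to P40, most tested members rose, led by RT1-A2, Cd74 and RT1-EC2, and 7 did not pass the test: RT1-T24-4, RT1-T24-3, RT1-N3, Tapbp, Psmb10, RT1-DMa and RT1-DMb. The F test over 4 ages called 18 of 25 members, against 36.4% of all transcripts. Of 25 tested, 18 were higher at P40 and 0 lower (limma, Benjamini-Hochberg adjusted p under 0.05), against 16.1% of all 9960 tested transcripts higher and 26.8% lower (42.9% called in all). At an unadjusted p under 0.05 the count was 20 members. The filter bears on these counts, which are a description: 8 of the 25 reached 1 FPKM only in P20 or P40 libraries. They were RT1-Bb, RT1-CE4, RT1-CE7, RT1-Db1, RT1-T24-3 and Psmb8, with RT1-A1 and Tap1, which did so only at P40. Of the 17 that reached 1 FPKM in an E21 or P5 library, 11 were higher at P40. In both E21 libraries, RT1-A2, RT1-EC2, RT1-M3-1, RT1-Ba, RT1-Da, Cd74 and Psmb9 of these 11 were under 1 FPKM. RT1-Ba, RT1-Da and Psmb9 reached it in only 1 P5 library, so they too needed P20 or P40 libraries to pass. The filter therefore bears on this count as well. With no filter on FPKM, 22 of 51 members were higher and 0 lower, against 30.1% of all transcripts called, higher and lower together. The share called higher alone was not taken for that setting. The members' median change was 1.33 on the log2(FPKM + 1) scale, beside -0.18 for all transcripts. Both P40 libraries lay above both E21 libraries for 22 of 25 members, and for 28.2% of all transcripts. All 4 libraries of P20 and P40 lay above all 4 of E21 and P5 for 13 of 25 members, and for 6.78% of all transcripts. The filter bears on both of these non-overlap counts as well. RT1-A1, RT1-Bb, RT1-CE4, RT1-CE7 and RT1-Db1 are among the 13 and passed it only through P20 or P40 libraries. RT1-Ba and RT1-Da, also among the 13, needed P20 or P40 libraries to pass it. All values are levels in whole glands, so more cells of a type and more RNA per cell cannot be told apart.

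**Figure D3:**
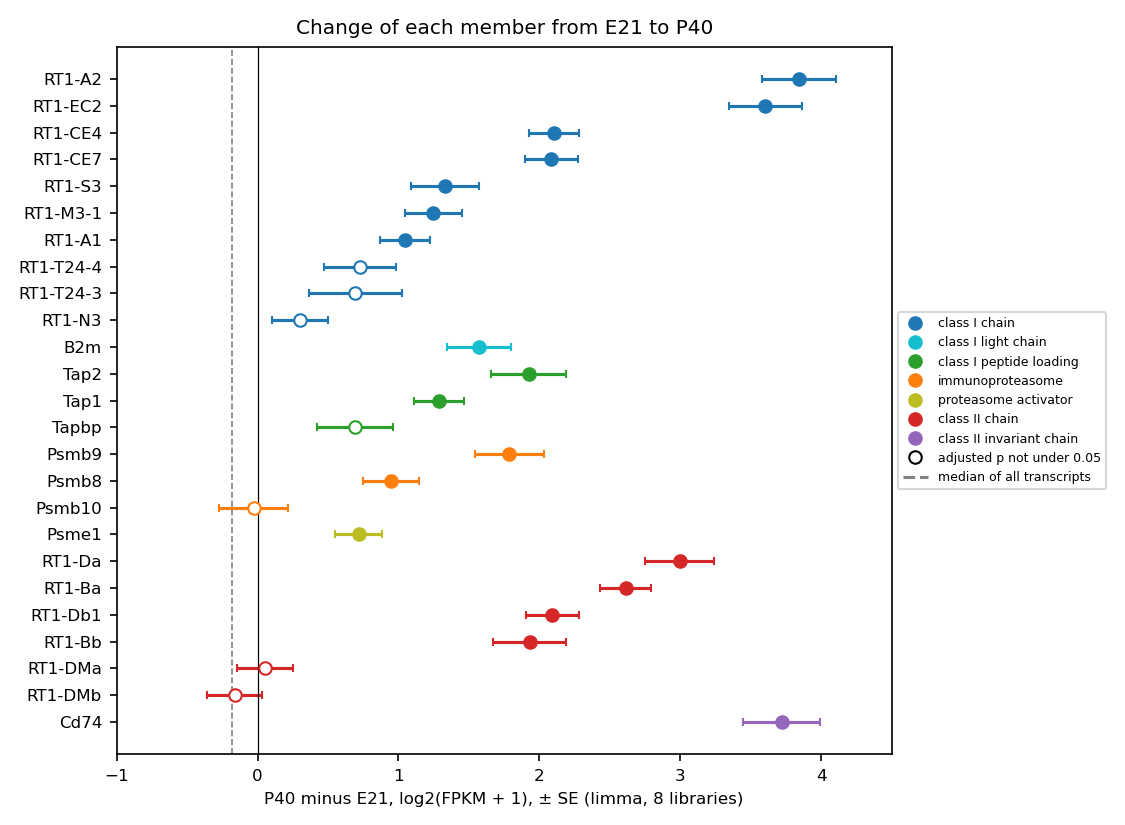
Difference between P40 and E21 in log2(FPKM + 1) (horizontal axis) with its standard error from the limma fit over 8 libraries, for each tested member (vertical axis, coloured by role). Filled points passed an adjusted p of 0.05, open points did not, and the dashed line is the median of all transcripts at -0.18.

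The largest class I changes were in the RT1-A region, which holds the classical genes. RT1-A2, a classical heavy chain at chr20:5021816-5025341 (rn4), was at 0.0697 and 0.297 FPKM in the E21 mid-day and mid-night libraries, 4.96 and 4.09 at P5, then 11.998 and 7.43 at P20, and 21.0 and 12.02 at P40. RT1-EC2 (chr20:5001581-5002228) was at 0.282 and 0.235 FPKM at E21, 2.92 and 2.76 at P5, then 9.34 and 4.98 at P20, and 19.7 and 10.3 at P40. For both, each age lay above the one before it without overlap, except that the P40 mid-night and P20 mid-day values of RT1-A2 nearly met. The P40 to E21 difference was 3.84 ± 0.26 (SE) for RT1-A2 (limma adjusted p = 6.04e-05) and 3.60 ± 0.26 for RT1-EC2 (adjusted p = 7.06e-05), on the log2(FPKM + 1) scale. The row of RT1-A3, which reached 2.04 FPKM at P40 mid-night and was not tested, spans the other 3 rows of this region (RT1-A1, RT1-A2 and RT1-EC2), so fragments may be divided among them and their separate levels are uncertain.

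RT1-A1 was listed at 0.0597 and 0 FPKM at E21 and was at 1.24 and 1.02 FPKM at P40, a difference of 1.05 ± 0.18 (limma adjusted p = 0.00287). It passed the filter only through the 2 P40 libraries and was not tested without either of them. Of the RT1-CE chains, RT1-CE4 was at 0.155 and 0.0293 FPKM at E21, 0.431 and 0.222 at P5, then 1.61 and 1.64 at P20, and 4.18 and 3.23 at P40. RT1-CE7 followed from 0.0807 and 0.120 FPKM at E21 to 3.47 and 3.88 at P40, with no library of P20 or P40 as low as any of E21 or P5. Their differences were 2.10 ± 0.18 and 2.09 ± 0.19 (limma adjusted p = 0.000143 and 0.000177). The other RT1-CE rows were not tested, and 6 rows, all on the unplaced part of chromosome 20, were listed at 0 in all 8 libraries.

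Of the class I chains outside these regions, 2 rose and 3 did not pass the test. RT1-S3, a non-classical heavy chain, was at 2.02 and 2.96 FPKM at E21 and 8.72 and 6.77 at P40, a difference of 1.33 ± 0.24 (limma adjusted p = 0.00388). RT1-M3-1, which presents N-formylated peptides, was at 0.339 and 0.468 FPKM at E21, 1.52 and 1.51 at P5, then 1.88 and 1.13 at P20, and 2.58 and 2.09 at P40, a difference of 1.25 ± 0.20 (adjusted p = 0.00226). RT1-T24-4 (0.72 ± 0.26, adjusted p = 0.0523), RT1-T24-3 (0.69 ± 0.33, adjusted p = 0.124) and RT1-N3 (0.30 ± 0.20, adjusted p = 0.259) did not pass. So 7 of 10 class I chains tested were higher at P40, against 16.1% of all tested transcripts. The filter bears on this count, since RT1-A1, RT1-CE4 and RT1-CE7 reached 1 FPKM only in P20 or P40 libraries. RT1-A2, RT1-EC2 and RT1-M3-1 were also under 1 FPKM in both E21 libraries and passed through later ages.

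The makeup of class I transcripts changed with age. Summed over all 39 class I rows, the level was 8.93 and 9.46 FPKM at E21, 20.8 and 18.6 at P5, then 41.6 and 32.6 at P20, and 82.3 and 49.4 at P40, with no overlap between ages. RT1-A2 and RT1-EC2 together made up 3.94% and 5.62% of that sum at E21, 37.8% and 36.9% at P5, then 51.3% and 38.0% at P20, and 49.4% and 45.2% at P40. The RT1-N, RT1-O, RT1-S and RT1-T rows summed to 7.05 and 7.59 FPKM at E21, which was most of the class I signal at that age, and to 19.4 and 12.6 FPKM at P40. These shares are descriptions of FPKM as deposited, and the mapping of Sprague-Dawley reads of polymorphic class I genes to the reference build was not tested.

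B2m, the light chain of every class I molecule, was the most abundant member in each library. It stood at 62.6 and 31.8 FPKM at E21, 75.9 and 60.4 at P5, then 104 and 75.6 at P20, and 150 and 121 at P40, and both P40 libraries lay above the 6 younger ones. Its P40 to E21 difference was 1.57 ± 0.23 (limma adjusted p = 0.00139), on means of 47.2 ± 21.8 and 136 ± 20.8 FPKM (SD, n = 2). B2m exceeded the summed class I chains 7.01-fold and 3.36-fold at E21 and 1.83-fold and 2.45-fold at P40. Tap2 was at 0.347 and 1.19 FPKM at E21, 2.54 and 3.52 at P5, then 5.84 and 4.27 at P20, and 5.34 and 5.69 at P40, and Tap1 was at 0.434 and 0.526, 0.851 and 0.967, 0.804 and 0.924, and 2.78 and 2.45 FPKM. For Tap2 the P20 values spanned those of P40, whereas for Tap1 they overlapped those of P5 and lay far below P40. The P40 to E21 differences were 1.92 ± 0.26 for Tap2 and 1.29 ± 0.17 for Tap1 (limma adjusted p = 0.00109 and 0.00106). Tap1, like RT1-A1, passed the filter only through the P40 libraries. Tapbp (tapasin), which bridges class I chains to the transporter, was at 3.39 and 4.45 FPKM at E21 and 5.27 and 8.94 at P40 and did not pass (0.69 ± 0.27, adjusted p = 0.0697).

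The immunoproteasome replaces the catalytic subunits Psmb5, Psmb6 and Psmb7 with Psmb8, Psmb9 and Psmb10. Psmb8 was at 0.167 and 0.456 FPKM at E21, 0.311 and 0.822 at P5, then 0.646 and 1.10 at P20, and 1.58 and 1.45 at P40. Psmb9 was at 0.332 and 0.651 FPKM at E21, 0.712 and 3.11 at P5, then 1.59 and 2.75 at P20, and 2.98 and 5.58 at P40, so that both E21 libraries lay below all later ones while P40 mid-day lay just below P5 mid-night. Psmb10 was at 4.95 and 3.66 FPKM at E21 and 4.55 and 3.81 at P40, with its lowest level, 1.93 FPKM, at P20 mid-night. Psmb9 rose by 1.79 ± 0.25 and Psmb8 by 0.95 ± 0.20 (limma adjusted p = 0.00115 and 0.00671), and Psmb10 differed by -0.03 ± 0.24 (adjusted p = 0.935). Without the P40 mid-day library, Psmb8 no longer passed (adjusted p = 0.0716).

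Psmb5 fell by 1.39 ± 0.30 over the same ages (adjusted p = 0.00756) and Psmb7 by 0.64 ± 0.18 (adjusted p = 0.0221). As a share of the Psmb8 and Psmb5 pair, Psmb8 was 0.265% and 1.60% at E21, 1.02% and 3.19% at P5, then 2.94% and 6.71% at P20, and 10.1% and 7.91% at P40. Psmb10 was 9.50% and 9.75% of its pair with Psmb7 at E21 and 14.7% and 13.7% at P40, with 7.72% at P20 mid-night. Psmb6 was at only 0.215 to 2.03 FPKM in these files, far under Psmb5 and Psmb7, so no share is given for Psmb9. Psme1, the alpha subunit of the 11S activator that opens the proteasome, was at 13.8 and 12.6 FPKM at E21, 12.3 and 13.4 at P5, then 16.6 and 14.5 at P20, and 23.2 and 21.6 at P40. Its difference of 0.72 ± 0.17 (limma adjusted p = 0.0111) was lost without the E21 mid-night (adjusted p = 0.0641), P40 mid-day (0.0796) or P40 mid-night library (0.0742). Psme2, the partner subunit, was not tested, at 1.11 and 0.928 FPKM at E21 and 0.678 and 0.638 at P40, and the ratio of Psme1 to Psme2 went from 12.5 and 13.6 at E21 to 34.2 and 33.8 at P40.

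**Figure D4:**
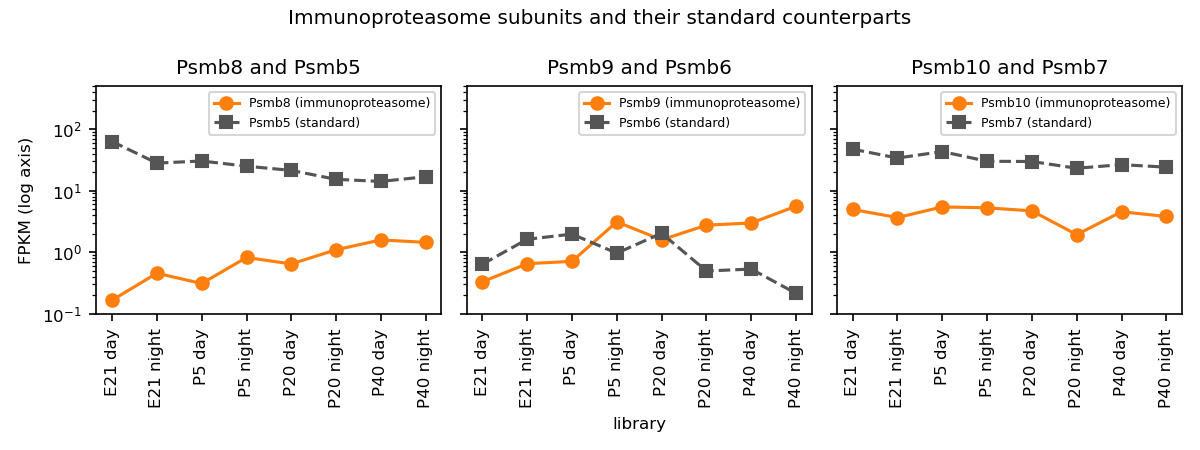
FPKM (vertical log axis) of each immunoproteasome subunit (circles) and its standard counterpart (squares) in the 8 libraries in order of age and time of day (horizontal axis). Psmb8 and Psmb9 climb from E21 to P40, Psmb5 and Psmb7 fall, and Psmb10 stays between 1.93 and 5.45 FPKM.

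The 4 peptide-presenting class II chains and Cd74 rose together. RT1-Da, the DR-type alpha chain, was at 0.255 and 0.0936 FPKM at E21, 0.836 and 2.03 at P5, then 4.01 and 5.85 at P20, and 7.81 and 8.92 at P40. RT1-Ba, the DQ-type alpha chain, was at 0.0417 and 0.177 FPKM at E21, 0.848 and 1.16 at P5, then 3.38 and 4.68 at P20, and 5.63 and 5.92 at P40. For both alpha chains the 4 ages did not overlap. Their beta partners ended lower, RT1-Db1 going from 0.0723 and 0.166 FPKM at E21 to 3.01 and 4.67 at P40 and RT1-Bb from 0.183 and 0.0855 to 2.19 and 4.85. Differences were 3.00 ± 0.24 for RT1-Da, 2.61 ± 0.18 for RT1-Ba, 2.09 ± 0.19 for RT1-Db1 and 1.93 ± 0.26 for RT1-Bb (limma adjusted p = 0.000116, 6.14e-05, 0.000186 and 0.000963). Cd74, which blocks the peptide groove and guides class II to endosomes, was at 0.701 and 0.478 FPKM at E21, 1.74 and 4.29 at P5, then 10.5 and 13.2 at P20, and 19.1 and 20.7 at P40. The 4 ages of Cd74 did not overlap, its mean at P40 was 33.7 times that at E21, and its difference was 3.72 ± 0.27 (adjusted p = 7.26e-05).

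Cd74 kept close to the sum of the 4 presenting chains in FPKM: the ratio was between 0.701 (P5 mid-day) and 1.27 (E21 mid-day) in the 8 libraries, while the sum went from 0.552 and 0.523 FPKM at E21 to 18.6 and 24.4 at P40. Across the 8 libraries, which share the age course, Pearson's r with Cd74 on the log2(FPKM + 1) scale was 0.998 for RT1-Da, 0.990 for RT1-Ba, 0.970 for RT1-Db1 and 0.956 for RT1-Bb, given as a description. The DM chains, which exchange peptides on class II molecules inside the cell, did not share this course. RT1-DMa was at 1.05 and 1.89 FPKM at E21 and 1.23 and 1.86 at P40 (difference 0.05 ± 0.20), and RT1-DMb at 2.79 and 3.40 and 2.62 and 2.69 FPKM (-0.16 ± 0.20, limma adjusted p = 0.844 and 0.532). Their r with Cd74 was 0.09 and -0.36. At E21 the DM chains summed to 3.84 and 5.29 FPKM, above the presenting chains, and at P40 to 3.85 and 4.54, below them. RT1-DMa carries the Y box and the X box core printed above, as do RT1-Bb, RT1-Da and RT1-Db1. RT1-Ba carries the Y box without a match to that core, and the Cd74 promoter had no match to either.

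RT1-DOa and RT1-DOb, which modulate DM and are known mainly from B cells, stayed at or under 0.194 FPKM, and RT1-Db2 and RT1-Ha were listed at 0 in all 8 libraries. Ciita, the transactivator that class II transcription depends on, was not tested. It was at 0 and 0.00992 FPKM at E21, 0.0429 and 0.0459 at P5, then 0.0688 and 0.144 at P20, and 0.172 and 0.0809 at P40. These levels correspond to few fragments, and each library from P5 on lay above both E21 libraries.

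Markers of cells that can bear class II were set beside these values. The 14 microglia and macrophage markers summed to 34.1 and 41.0 FPKM at E21, 22.4 and 35.2 at P5, then 39.2 and 40.0 at P20, and 57.1 and 67.2 at P40. Of 11 tested, 6 rose (Csf1r, Cx3cr1, C1qa, Tyrobp, Fcgr3a and Lyz2) and 2 fell (Aif1 and Mrc1), against 16.1% of all tested transcripts higher and 26.8% lower. Fcgr3a reached 1 FPKM only in the P40 libraries. Of those not tested, Cd163 went from 0.933 and 1.85 FPKM at E21 to 0.0295 and 0.0560 at P40. Itgam went from 0.210 and 0.390 to 0.654 and 0.891, and Ptprc from 0 and 0 to 1.95 and 0.0361. The 6 dendritic cell markers found summed to 0.478 to 0.887 FPKM at E21 and 1.94 to 2.04 at P40. The 4 B cell markers summed to 0.377 to 1.21 FPKM over the 8 libraries, with Ms4a1 listed at 0 throughout. No dendritic cell or B cell marker reached the filter. The 8 T and NK cell markers summed to at most 0.528 FPKM, with Cd3d listed at 0 throughout. The part of these cells in the class I and class II changes was not tested.

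**Figure D5:**
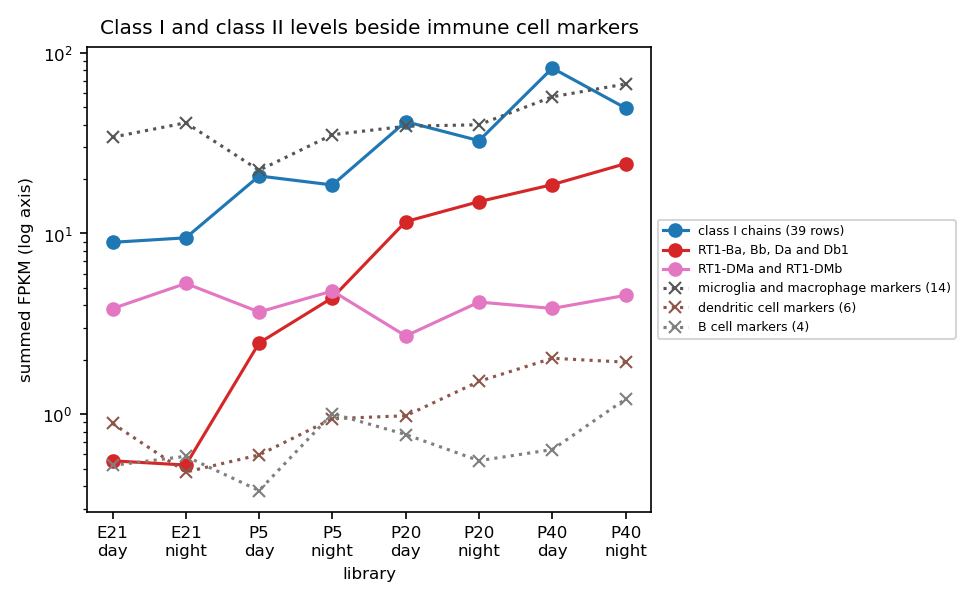
Summed FPKM (vertical log axis) of class I chains, class II presenting chains and DM chains (solid lines), with summed markers of immune cells (dotted lines), in the 8 libraries in order of age and time (horizontal axis). The class II presenting chains go from 0.552 and 0.523 FPKM at E21 to 18.6 and 24.4 at P40, the DM chains stay between 2.71 and 5.29 FPKM, and microglia and macrophage markers go from 34.1 and 41.0 to 57.1 and 67.2 FPKM.

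The comparisons of successive ages share libraries, so their values are given side by side. From E21 to P5, 7 of 25 members rose and 0 fell (limma), against 15.1% of all transcripts called, 8.29% higher and 6.84% lower. They were RT1-A2 (2.22 ± 0.26), RT1-EC2 (1.61 ± 0.26), Cd74 (1.26 ± 0.27), Tap2 (1.22 ± 0.26), RT1-Da (1.01 ± 0.24), RT1-Ba (0.85 ± 0.18) and RT1-M3-1 (0.84 ± 0.20). From P5 to P20, 5 of 25 rose and 0 fell, against 7.02% called, 1.02% higher and 5.99% lower: Cd74 (1.75 ± 0.27), RT1-Ba (1.32 ± 0.18), RT1-Da (1.31 ± 0.24), RT1-Db1 (1.19 ± 0.19) and RT1-CE4 (0.99 ± 0.18). RT1-A2 differed by 0.93 ± 0.26 at that step and did not pass (limma adjusted p = 0.0772). The filter bears on both counts. Of the members that rose from E21 to P5, all but Tap2 were under 1 FPKM in both E21 libraries. Of those that rose from P5 to P20, RT1-Db1 and RT1-CE4 reached 1 FPKM only in P20 or P40 libraries. RT1-Ba and RT1-Da reached it in only 1 P5 library. These counts depended on single libraries. The first fell from 7 to 4 without the E21 mid-day library, to 3 without E21 mid-night or P5 mid-day, and to 1 without P5 mid-night. The second fell from 5 to 1 without P5 mid-day, P5 mid-night or P20 mid-day and to 0 without P20 mid-night. From P20 to P40, limma called 0 of 25 members and 0% of all transcripts. At an unadjusted p under 0.05 there were 12 members, and 25 of 25 differences were positive, with a median of 0.46 beside 0.04 for all transcripts. The shares of all transcripts were not taken for either count, so both are descriptions.

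Over the 4 ages, limma called 0 of 25 members between mid-night and mid-day, and 0% of all transcripts, with 4 members at an unadjusted p under 0.05 (B2m, RT1-EC2, RT1-N3 and Psmb9). B2m, RT1-A1, RT1-EC2, RT1-N3 and Psmb10 were lower at mid-night at all 4 ages, 5 of 25 members beside 10.5% of all transcripts. Psmb9, RT1-Ba, RT1-Db1 and RT1-DMb were higher at mid-night at all 4 ages, 4 of 25 beside 6.96%. Psmb9 differed by 0.71 ± 0.17 (unadjusted p = 0.00382 in limma, adjusted p = 0.474) and B2m by -0.51 ± 0.16 (unadjusted p = 0.0133, adjusted p = 0.474).

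At E21 and P5, limma called 0 of 25 members (4 at an unadjusted p under 0.05), against 0.0301% of all transcripts. At P20 and P40 it called 1 of 25, against 4.39% called and 1.59% called lower. This was RT1-EC2, which was at 9.34 FPKM by day and 4.98 by night at P20 and at 19.7 and 10.3 at P40, a difference of -0.83 ± 0.16 (adjusted p = 0.0307). RT1-A2 differed by -0.69 ± 0.19 (adjusted p = 0.0845). The call of RT1-EC2 was lost when any 1 of the 8 libraries was left out. The night effect of the older pair minus that of the younger pair passed for 0 of 25 members (4 at an unadjusted p under 0.05), beside 0.753% of all transcripts, and for RT1-EC2 it was -0.77 ± 0.23 (limma adjusted p = 0.222). At single ages there was 1 library for each time and no test. On the log2(FPKM + 1) scale, Psmb9 was at least 2-fold higher at mid-night at P5 (1.55% of all transcripts). RT1-T24-3 was at least 2-fold lower at P40 (1.34%). Without the pseudocount, more members differed at least 2-fold in FPKM. Among them were Cd74 at P5 (2.47 times as high at mid-night), RT1-Bb at P40 (2.22 times) and Psmb10 at P20 (0.412 times). The P5 pools also differed in choroid plexus markers (3164 FPKM at mid-day, 17845 at mid-night). Time of day and the content of the pool therefore cannot be told apart at P5. Each P40 pool held 3 animals of an outbred strain, so time of day and the animals pooled cannot be told apart there.

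Other genes of the pathway were compared between P40 and E21 from lists named by role. Counts in each list stand beside 16.1% of all tested transcripts higher and 26.8% lower. Among 9 assembly partners of class I, 2 rose, Ganab (0.75 ± 0.23) and Erap1 (0.93 ± 0.20), which trim glycans and peptides, and 1 fell, the translocon subunit Sec61a1 (-0.96 ± 0.18). The chaperones Hspa5 (-0.08) and Calr (-0.39) did not pass, and the median of the list was 0.02. Of 10 standard proteasome subunits 0 rose and 6 fell, among them Psma4 (-0.78), Psma2 (-0.72), Psmb5 and Psmb7, with a median of -0.66. Psma7 (-0.11) and Psma1 (-0.29) did not pass. The same list held 3 other genes, of which the assembly chaperone Pomp fell and the activators Psme3 and Psme4 did not pass. Of 7 class II processing partners, 4 rose and 1 fell. Cathepsin S (Ctss), which cleaves the invariant chain, rose by 2.02 ± 0.19 and legumain (Lgmn), an endosomal protease, by 1.98 ± 0.22, with smaller rises of Ctsd (0.70) and Ctsh (0.70). Ctsb (0.52) and Ctsl1 (-0.31) did not pass. Ifi30, a thiol reductase of the class II pathway, fell by 1.39 ± 0.20, from 9.10 and 7.83 FPKM at E21 to 2.32 and 2.90 at P40.

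Of 12 transcriptional regulators tested, 2 rose (Irf8 and Irf1) and 5 fell. Irf8 rose by 1.43 ± 0.43, from 0.987 and 1.55 FPKM at E21 to 2.48 and 9.52 at P40. It was at 6.96 and 7.34 FPKM at P5 and at 1.27 and 7.29 at P20, so the P40 mid-day level was below both P5 levels. All 3 subunits of NF-Y fell, Nfya by 1.35 ± 0.18, Nfyb by 0.84 ± 0.21 and Nfyc by 0.84 ± 0.18, together with Creb1 and Rest. The RFX subunit Rfx5 differed by -0.47 ± 0.17 and did not pass (limma adjusted p = 0.0636). Rela (-0.09) did not pass either. Of 7 genes of interferon receptors and signalling tested, 3 rose and 0 fell: Irf9 (1.29 ± 0.22), Ifngr1 (0.88 ± 0.18) and Stat2 (0.82 ± 0.20). Jak1 (0.24) and Ifnar1 (-0.34) did not pass. Ifng and Ifnb1, which encode interferons, were listed at 0 in all 8 libraries. Among MHC-like molecules encoded elsewhere, Cd1d1, which presents lipids, rose by 1.71 ± 0.23, while the neonatal Fc receptor heavy chain Fcgrt fell by 1.11 ± 0.17 and Procr by 0.91 ± 0.25. None of the 2 co-stimulation and T cell partners tested, Icam1 and Cd4, passed in limma.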

How the data were processed

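Per the labels' protocols, polyadenylated RNA of pooled glands was sequenced as paired ends. Per the submitters' processing notes, the authors used TopHat 1.3.1, Cufflinks 1.2.0 and build rn4, and they deposited FPKM per transcript. Filters and strandedness are not given in the sources used here. Per-sample values were identical to the series table for 8 of 8 libraries. Without read counts, no intervals for counting error could be given.

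The pseudocount was 1 FPKM before taking log2, so changes of low transcripts are understated, and no scaling was added. Transcripts reaching 1 FPKM in 2 or more libraries (9960) entered limma 3.58.1 (R 4.3.3, trended eBayes, two-sided), and p-values were adjusted by Benjamini-Hochberg over all of them, with a threshold of 0.05. Counts of members at an unadjusted p under 0.05 were not set against all transcripts and are descriptions. Age and time of day were additive terms in the model of the age comparisons. The night effects of the younger ages (E21, P5) and the older ages (P20, P40) came from a model with age and these effects. The scripts were tested on simulated data. Groups came from the labels, and members and lists were chosen with earlier results of these data known. All members passing the filter are named, and for each other list, ranked by mean FPKM, the top 4 or fewer genes that passed the test and the top 2 or fewer that did not. Irf1, Pomp, Psme3, Psme4, Creb1, Rest, Ifi30, Ifng and Ifnb1 and the named cell markers were added after their values were seen. An item of the pathway lists is not reported here and was left out of their counts. Starts of rn4 coordinates were counted from 0 in the files (99.7% of short olfactory receptor spans are then multiples of 3) and are printed counted from 1. The settings varied were the pseudocount (0.1 or 5), the filter (none, or 5 FPKM), quantile normalization, median centring, robust or untrended eBayes, sums per symbol, age as the only term, and the omission of each library.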

Additional observations from a re-analysis of the deposited data

How the results depend on the processing

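No paired analysis was possible because only 1 pool was made per age and time, and age is already a term of every fit. Of the 18 members higher at P40 than at E21, 16 passed in every alternative that tested them, the exceptions being Psmb8 and Psme1, each named above. Leaving out 1 library gave 15 to 19 calls for P40 against E21, 14 to 18 for the age test, 1 to 7 for P5 against E21, 0 to 7 for P20 against P5 and 0 to 0 for night at P20 and P40. Between 22 (without P40 mid-day) and 25 members were tested in these fits, so members such as RT1-A1 and Tap1 left the test rather than failed it. The filter at 5 FPKM, which left 11 members tested, gave 9 calls for the age test (35.6% of all transcripts called), 9 for P40 against E21 (43.5%) and 3 for P20 against P5. P5 against E21 gave 2 calls at a pseudocount of 5 and 3 with no filter, and P20 against P5 gave 10 under quantile normalization. Night at P20 and P40 gave 0 calls at a pseudocount of 0.1, with no filter, under quantile normalization and under median centring. The cause of these differences was not tested. The share of all transcripts called changed with the setting as well, so member counts given here without that share are descriptions.

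Changes near 0 turned sign. Psmb10 was 0.23 under quantile normalization, 0.16 under median centring and -0.149 to 0.0945 with 1 library left out (the last without P40 mid-day). RT1-DMb was 0.11, 0.030 and -0.342 to 0.0191 (the last without P40 mid-night). RT1-DMa was -0.0969 (without E21 mid-day) to 0.204 with 1 library left out, and -0.0044 without P40 mid-night. Median centring removes the -0.18 shift of all transcripts between E21 and P40, and under it Tapbp (adjusted p = 0.0284) and RT1-T24-4 (0.0168) passed in limma, as they did under quantile normalization (0.0233 and 0.0115). RT1-T24-3 passed without P40 mid-night (adjusted p = 0.0351). Depth limits the members under about 0.1 FPKM, mostly at E21, where few fragments set the value.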
